A study of Mus musculus with 6 samples.

Results

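Transcripts of 10 proteins that hepatocytes secrete into the blood were followed in mouse RNA labelled as aorta: Alb, Ttr, Ahsg, Apoa1, Apoa2, Apoc3, Apoh, Fga, Fgb and Fgg. They were picked by gene name from a table of 33919 genes, all 10 names were found in it, and all 10 passed the filter on low counts. The list was drawn up with the counts of both groups already known, so the values of its members in this comparison are a description and carry no test. The series holds 6 RNA sequencing libraries of poly(A) RNA. Of these, 3 were labelled KO and 3 were labelled WT, all came from mice that received angiotensin II (Ang II), a peptide that constricts vessels, and the series title names endothelial OTUD1, a deubiquitinating enzyme, as its subject. The sources used here give neither the promoter nor the exon of the KO allele, nor the strain, the age, or the dose and length of the Ang II treatment. Aorta is the labelled tissue, yet the RNA protocol mentions an adipose type. In every library, skeletal muscle markers also summed to far more than smooth muscle markers (values below).

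The liver makes most plasma proteins. Hepatocytes copy their genes at a very high rate under a small set of liver-enriched transcription factors (among them HNF4, FOXA and C/EBP proteins), and the products carry fatty acids, hormones and lipids or form the fibrin clot. A vessel wall takes these proteins up from the blood but its own cells are not known as a main source of their mRNAs, although Apoa1, Apoa2, Apoc3 and Ttr are also made in some other epithelia or the yolk sac.

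Total counts were 65.3 to 71.5 M (megacounts) in the libraries labelled KO and 62.3 to 70.5 M in those labelled WT. Without mitochondrial genes and their nuclear copies the totals were 23.0 to 23.4 M in the libraries labelled KO and 17.3 to 19.4 M in those labelled WT. Levels are given as deposited counts, as TMM-scaled CPM (counts brought to a common library size of 1 megacount), or as the deposited FPKM, which also divides by gene length. Between 33.0% and 34.9% of the counts from 1 to 40 were multiples of 4, against 25% by chance. On the assumption of 4 counts per read pair, 12 counts (3 read pairs) were taken as the limit that a count of 0 allows in a library. That is 0.164 to 0.200 CPM, for counting error only. Most of the low counts were not multiples of 4, so the unit, and with it the limit, is a convention. Otud1 had 1033, 1141 and 1223 counts in the libraries labelled KO, against 593, 699 and 615 counts in those labelled WT (log2 change 0.63, adjusted p = 0.0039 by edgeR). It was thus higher, not lower, in the libraries labelled KO. As the KO allele is not described, whether this goes against the label cannot be told, so groups are named by their labels throughout. On the second principal component, which held 15.2% of the variance, the third library labelled WT (64.0) stood apart from the other two (-37.3 and -28.1). No label ties the libraries to separate animals, so the errors below measure the spread between libraries.

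The upstream sequence of 4 of the genes is shown first, because the list is defined by liver expression. Windows of 8 of its members were taken from the RefSeq table for GRCm38.p6. Each runs from 250 bases before to 50 bases after the annotated start. Capitals mark TTGCNNAA, a form of the site of C/EBP factors, on either strand. Alb lies at chr5:90460620-90460919 (plus strand), Fga at chr3:83025903-83026202 (plus strand), Fgb at chr3:83049814-83050113 (minus strand, shown as the gene reads) and Apoa1 at chr9:46228380-46228679 (plus strand).
Alb: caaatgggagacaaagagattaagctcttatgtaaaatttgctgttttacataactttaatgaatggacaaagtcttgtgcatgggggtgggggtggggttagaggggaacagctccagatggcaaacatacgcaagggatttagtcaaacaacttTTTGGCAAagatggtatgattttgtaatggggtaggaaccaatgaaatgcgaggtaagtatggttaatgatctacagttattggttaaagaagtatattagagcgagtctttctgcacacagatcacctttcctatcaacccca
Fga: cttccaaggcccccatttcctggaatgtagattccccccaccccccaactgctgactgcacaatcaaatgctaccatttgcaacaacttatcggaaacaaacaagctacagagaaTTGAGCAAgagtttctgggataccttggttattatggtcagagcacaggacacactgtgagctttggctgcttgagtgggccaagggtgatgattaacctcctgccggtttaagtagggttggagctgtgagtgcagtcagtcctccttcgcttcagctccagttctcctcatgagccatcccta
Fgb: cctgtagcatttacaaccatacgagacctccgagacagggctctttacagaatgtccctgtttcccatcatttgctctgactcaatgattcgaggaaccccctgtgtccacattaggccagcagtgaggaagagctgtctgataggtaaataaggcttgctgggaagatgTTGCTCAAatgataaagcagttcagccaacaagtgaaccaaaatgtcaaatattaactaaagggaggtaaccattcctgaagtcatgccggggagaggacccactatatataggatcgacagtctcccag
Apoa1: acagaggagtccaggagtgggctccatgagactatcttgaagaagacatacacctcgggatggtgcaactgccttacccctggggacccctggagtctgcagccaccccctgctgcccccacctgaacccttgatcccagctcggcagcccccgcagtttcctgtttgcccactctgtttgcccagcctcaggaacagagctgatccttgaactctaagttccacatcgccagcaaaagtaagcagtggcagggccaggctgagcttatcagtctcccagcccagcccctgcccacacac

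The pattern TTGCNNAA was present in 5 of the 9 windows searched (Alb, Fga, Fgb, Ahsg and a further window of Apoa2) and in 10.8% of all 32851 windows in the table. The annotated start of that Apoa2 window lay 3490 bases from the deposited gene start, and the window at the gene start itself held no match. For Ahsg the distance was 738 bases and for Apoh, without a match, 51943 bases. The pattern began 94, 135 and 80 bases before the annotated start of Alb, Fga and Fgb, and it was not found in the window of Apoa1. TATAAA, likewise searched on both strands, was present in 1 of the 9 windows searched, a window of Apoa2, and in 13.6% of all windows. Ttr was left out of this search, and no window of Apoc3 was available, so neither pattern was searched for in these genes. In the members' windows the matches of both patterns did not overlap each other. These are matches of letters and not sites shown to be bound.

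As a group the transcripts were scarcer in the libraries labelled KO. The 10 together took 1104, 1199 and 1186 counts in the libraries labelled KO, against 6328, 5603 and 6098 counts in those labelled WT. That was 16.9, 17.0 and 16.6 counts per megacount of the library total in the libraries labelled KO, against 89.8, 84.8 and 97.8 in those labelled WT, a ratio of 0.185. With mitochondrial genes and their nuclear copies left out of the total the ratio was 0.153, and with Alb left out of the sum it was 0.389. The sum without Alb still held Apoc3, which was higher in the libraries labelled KO. In 8 of the 10 transcripts every library labelled KO lay below every library labelled WT, in 1, Apoc3, every one lay above, and in 1, Apoa2, the groups overlapped. Among all 16620 genes tested, 19.4% had groups that did not overlap with KO lower and 19.3% with KO higher. The median of the fitted log2 changes was -2.51 over the 10, beside -0.02 over all genes tested. In bulk tissue, fewer cells of a type and less RNA per cell cannot be told apart.

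**Figure D1:**
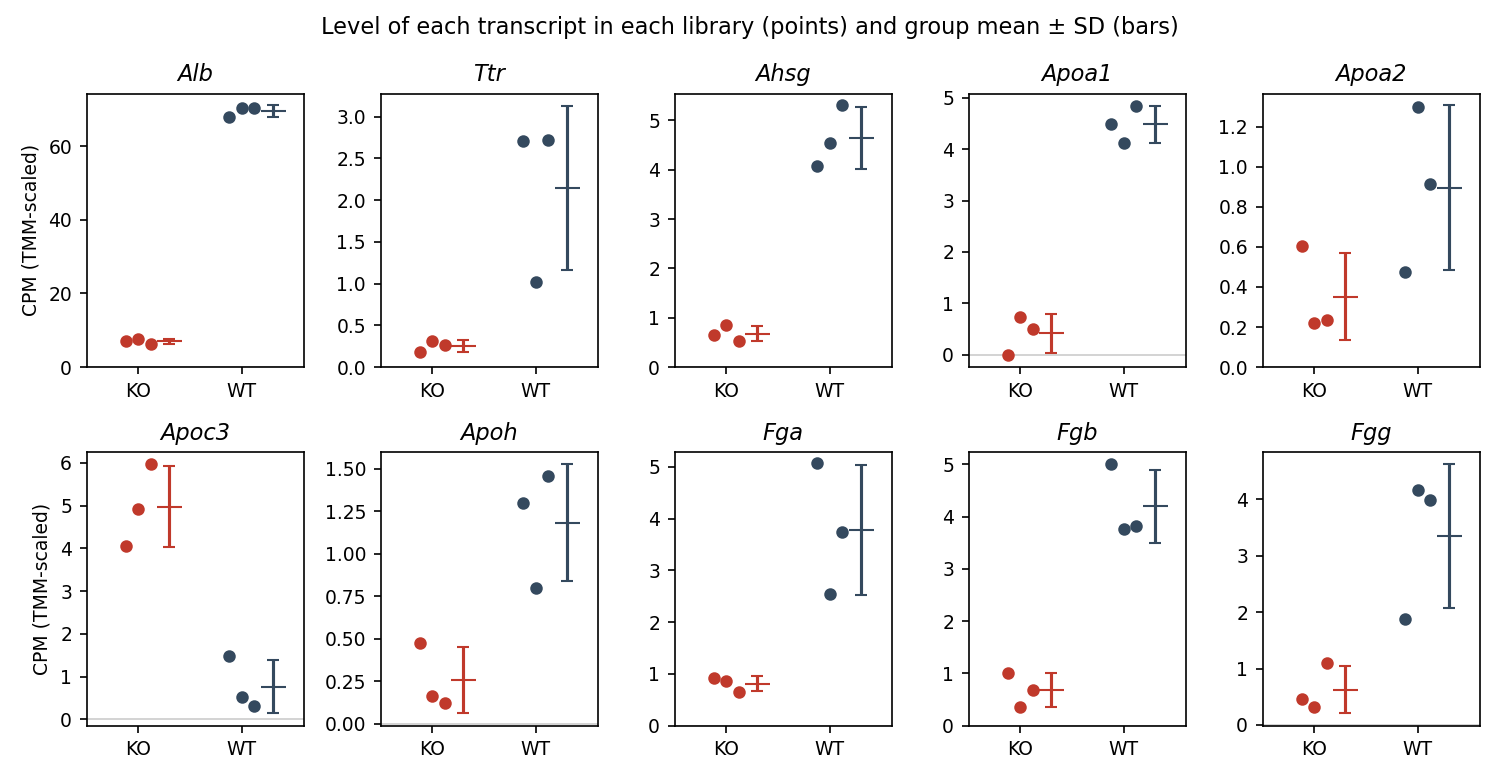
Level of each transcript in CPM (vertical axes, linear and different for each panel) in the 3 libraries labelled KO (red) and the 3 labelled WT (blue-grey), with the group mean and SD beside the points. Alb sits at 6.27 to 7.68 CPM in the libraries labelled KO and at 67.8 to 70.5 CPM in those labelled WT, and Apoc3 is the panel in which the red points are the higher ones.

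Alb encodes serum albumin, the most abundant plasma protein, which carries fatty acids, hormones and drugs. The gene (ENSMUSG00000029368, chromosome 5, 90460897 to 90476602, plus strand, on GRCm38 as for all genes) had 507, 561 and 455 counts in the libraries labelled KO, against 4552, 4235 and 4403 counts in those labelled WT. Within each group the libraries were close together, and no library of either group came near the other group. Its level was 7.02 ± 0.709 CPM in the libraries labelled KO and 69.5 ± 1.51 CPM in those labelled WT (SD, n = 3 each), a level 9.9-fold lower, with a fitted log2 change of -3.31 (SE 0.09). The SD was 2.17% of the mean in the libraries labelled WT, the smallest of the 10 transcripts there.

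Ttr encodes transthyretin, which transports thyroxine and, bound to retinol-binding protein, vitamin A. The gene (ENSMUSG00000061808, chromosome 18, 20665280 to 20674321, plus strand) had 13, 23 and 19 counts in the libraries labelled KO, against 182, 61 and 170 counts in those labelled WT. The second library labelled WT was well below the other two but still above all 3 libraries labelled KO. The fitted log2 change was -3.08 (SE 0.50), and -3.42 without that library.

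Ahsg encodes fetuin-A, a glycoprotein that binds calcium phosphate in plasma and keeps it from precipitating in soft tissue. The gene (ENSMUSG00000022868, chromosome 16, 22891277 to 22899449, plus strand) had 47, 62 and 39 counts in the libraries labelled KO, against 273, 273 and 332 counts in those labelled WT. The groups were far apart, and the fitted log2 change was -2.76 (SE 0.27). A predicted gene on the opposite strand that shares 3110 bases with it, Gm30505, had 0 counts in all but the second library labelled WT, where it had 4.

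The apolipoproteins did not move together. Apoa1, the main protein of high-density lipoprotein and the activator of the enzyme LCAT, lies on chromosome 9 (ENSMUSG00000032083, 46228580 to 46230466, plus strand). It had 0, 54 and 37 counts in the libraries labelled KO, against 301, 248 and 303 counts in those labelled WT. The first library labelled KO thus held no read of it, where the limit for a count of 0 is 0.168 CPM, and the other two held 0.739 and 0.510 CPM. The fitted log2 change was -3.42 (SE 0.74). It was -2.84 without the first library labelled KO and -4.12 without the second.

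Apoc3 went the other way. It encodes a small apolipoprotein that inhibits lipoprotein lipase and slows the clearance of triglyceride-rich particles, and it is the neighbour of Apoa1, 2466 bases away on the opposite strand (ENSMUSG00000032081, chromosome 9, 46232933 to 46235636). It had 289, 359 and 433 counts in the libraries labelled KO, against 99, 31 and 19 counts in those labelled WT. Every library labelled KO lay above every library labelled WT, and the first library labelled WT was the highest of its group. Its level was 4.98 ± 0.955 CPM in the libraries labelled KO and 0.765 ± 0.624 CPM in those labelled WT (SD, n = 3 each). That is 6.51-fold higher by the group means, with a fitted log2 change of 2.69 (SE 0.47), and 3.60 without the first library labelled WT. The next genes of the same cluster, Apoa4 and Apoa5, which take part in triglyceride transport, were near the limit, with 12, 6 and 4 counts of Apoa4 in the libraries labelled KO against 19, 0 and 12 in those labelled WT, and 0, 19 and 20 counts of Apoa5 in the libraries labelled KO against 38, 34 and 16 in those labelled WT.

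Apoa2, the other structural protein of high-density lipoprotein, was the member whose groups overlapped. The gene (ENSMUSG00000005681, chromosome 1, 171225054 to 171226379, plus strand) had 43, 16 and 17 counts in the libraries labelled KO, against 32, 78 and 57 counts in those labelled WT. In CPM, the first library labelled KO (0.604) lay above the first labelled WT (0.477). Its fitted log2 change was -1.34 (SE 0.64), and it depended on single libraries: it was -1.97 without the first library labelled KO and -0.98 without the second labelled WT.

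Apoh encodes beta-2-glycoprotein I, which binds anionic phospholipids. The gene (ENSMUSG00000000049, chromosome 11, 108343354 to 108414396, plus strand) had 34, 12 and 9 counts in the libraries labelled KO, against 87, 48 and 91 counts in those labelled WT. All values were low, the groups did not overlap, and the fitted log2 change was -2.21 (SE 0.63), or -3.02 without the first library labelled KO. Apoh shares 575 bases with the opposite-strand gene Prkca, which had 344, 317 and 306 counts in the libraries labelled KO and 186, 193 and 202 in those labelled WT. Whether the counting used strand is not stated, so reads in the shared stretch cannot be told apart.

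The 3 chains of fibrinogen, the precursor of the fibrin clot, are encoded within 42.1 kb of chromosome 3 and are joined into a single protein. Fga (ENSMUSG00000028001, 83026076 to 83033627, plus strand), the alpha chain, had 66, 63 and 47 counts in the libraries labelled KO, against 340, 153 and 234 counts in those labelled WT. Fgb (ENSMUSG00000033831, 83040141 to 83049863, minus strand), the beta chain, had 72, 26 and 50 counts in the libraries labelled KO, against 336, 226 and 239 counts in those labelled WT. Fgg (ENSMUSG00000033860, 83007724 to 83015049, plus strand), the gamma chain, had 33, 23 and 80 counts in the libraries labelled KO, against 126, 250 and 250 counts in those labelled WT. None of the 3 chains overlapped between the groups, and their fitted log2 changes were -2.22 (SE 0.32) for Fga, -2.61 (SE 0.36) for Fgb and -2.41 (SE 0.49) for Fgg. Without the third library labelled KO the value for Fgg was -3.10, against -2.08 for Fga and -2.62 for Fgb.

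The chains did not keep a fixed ratio from library to library. Fgg made up 19.3%, 20.5% and 45.2% of the summed fibrinogen counts in the libraries labelled KO, against 15.7%, 39.8% and 34.6% in those labelled WT. Fga made up 38.6%, 56.2% and 26.5% in the libraries labelled KO, against 42.4%, 24.3% and 32.4% in those labelled WT. The first library labelled WT was the richest in Fga and the poorest in Fgg of its group. The sum of the chains was 171, 112 and 177 counts in the libraries labelled KO and 802, 629 and 723 counts in those labelled WT.

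**Figure D2:**
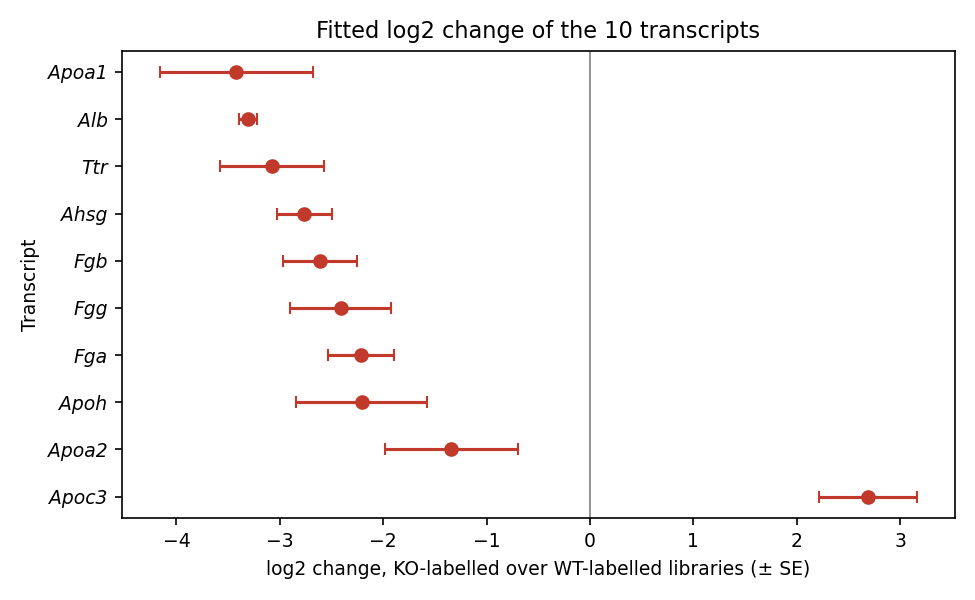
Fitted log2 change of each transcript, libraries labelled KO over libraries labelled WT (horizontal axis), with its SE as the bar. The values run from -3.42 for Apoa1 to -1.34 for Apoa2 on the left of 0, and Apoc3 stands alone on the right at 2.69.

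Ratios within a library do not depend on how the libraries are scaled to each other. For every 100 Alb counts there were 9.27, 11.1 and 8.57 Ahsg counts in the libraries labelled KO, against 6.0, 6.45 and 7.54 in those labelled WT. The fibrinogen chains together gave 33.7, 20.0 and 38.9 counts per 100 Alb counts in the libraries labelled KO, against 17.6, 14.9 and 16.4 in those labelled WT. Relative to Alb, both were thus higher in all 3 libraries labelled KO, in which Alb had the lower level. Ttr gave 2.56, 4.10 and 4.18 counts per 100 Alb counts in the libraries labelled KO and 4.0, 1.44 and 3.86 in those labelled WT, which overlap. Apoa1 gave 0, 9.63 and 8.13 in the libraries labelled KO and 6.61, 5.86 and 6.88 in those labelled WT, so the first library labelled KO lay below all others and the other two above. Apoc3 gave 57.0, 64.0 and 95.2 counts per 100 Alb counts in the libraries labelled KO, against 2.17, 0.732 and 0.431 in those labelled WT, the widest gap of the ratios to Alb.

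The make-up of the 10 transcripts differed between the groups. Alb took 45.9%, 46.8% and 38.4% of their summed counts in the libraries labelled KO, against 71.9%, 75.6% and 72.2% in those labelled WT. Apoc3 took 26.2%, 29.9% and 36.5% in the libraries labelled KO, against 1.56%, 0.553% and 0.312% in those labelled WT. Without Apoc3 the other 9 transcripts summed to 815, 840 and 753 counts in the libraries labelled KO, against 6229, 5572 and 6079 counts in those labelled WT.

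**Figure D3:**
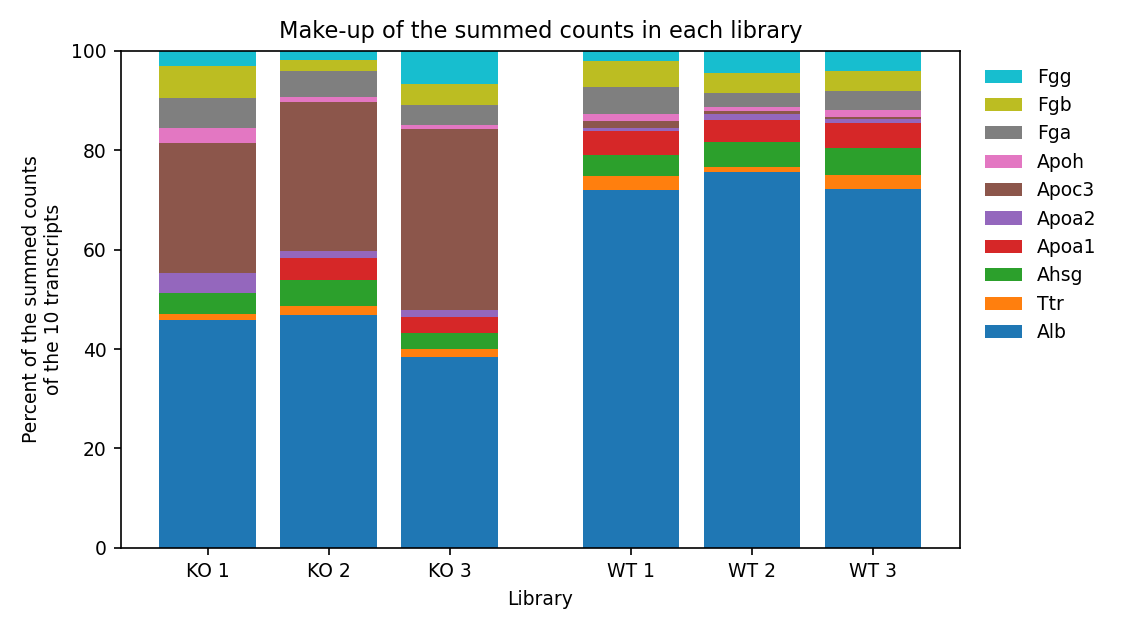
Share of each transcript in the summed counts of the 10 (vertical axis, percent) in each library (horizontal axis), libraries labelled KO on the left and WT on the right. Alb is the largest block in every library, and Apoc3 fills 26.2% to 36.5% of the bars of the libraries labelled KO, against 0.312% to 1.56% of those labelled WT.

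Ordered by FPKM, which allows levels of different genes to be set side by side, the lists began differently. In the libraries labelled KO, Apoc3 came first (4.64 ± 0.747 FPKM) and Alb next (2.86 ± 0.335 FPKM). In those labelled WT, Alb came first (25.5 ± 1.39 FPKM), followed by Apoa1 (3.11 ± 0.403 FPKM) and Ahsg (1.82 ± 0.318 FPKM), and Apoc3 came last (0.636 ± 0.522 FPKM; SD, n = 3 each). From Apoa2 downwards in the libraries labelled KO, and from Ahsg downwards in those labelled WT, each member's values overlapped those of the next in order. Among the 16620 genes tested, Alb ranked 4444th by mean FPKM in the libraries labelled KO and 589th in those labelled WT, while Apoc3 ranked 3016th in the libraries labelled KO and 9683rd in those labelled WT.

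Other genes of hepatocyte secretion behaved in more than 1 way. A further list held 40 plasma protein genes, of which 38 were tested, and 23 of these passed edgeR's quasi-likelihood test (adjusted p under 0.05) with lower values in the libraries labelled KO, 3 passed with higher values and 12 did not pass. Of all genes tested, 22% passed, 10.5% lower and 11.5% higher. Some of the 23 passed the low-count filter only through the libraries labelled WT. One such gene, Azgp1, had 4, 0 and 0 counts in the libraries labelled KO against 26, 75 and 76 in those labelled WT. Limma on log2(FPKM + 1) called 1006 genes lower and 2662 higher, against 1751 lower and 1907 higher here. The list's median log2 change was -2.55, close to that of the 10 transcripts, and it was likewise drawn up with earlier results known. Its summed level was 165.7 to 172.9 CPM in the libraries labelled KO and 199.3 to 208.1 CPM in those labelled WT, a smaller difference, since a few abundant members carry most of that sum.

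The 4 members of this list with the highest FPKM are named by a fixed rule. Trf, which encodes transferrin, the iron carrier of plasma, fell modestly, with 63.8 ± 0.544 CPM in the libraries labelled KO and 78.2 ± 3.03 CPM in those labelled WT (log2 change -0.29, adjusted p = 0.0029 by edgeR). Rbp4, the retinol-binding protein that travels with transthyretin and is also made by adipocytes, had 6.57 ± 1.42 CPM in the libraries labelled KO and 11.5 ± 2.11 CPM in those labelled WT (log2 change -0.81, adjusted p = 0.0093 by edgeR). Apoc1, a small apolipoprotein that macrophages and fat also express, rose slightly, with 36.9 ± 3.16 CPM in the libraries labelled KO and 28.8 ± 0.107 CPM in those labelled WT (log2 change 0.36, adjusted p = 0.0085 by edgeR). Itih4, a heavy chain of the inter-alpha-trypsin inhibitor family, rose most, with 2890, 2805 and 2528 counts in the libraries labelled KO against 289, 377 and 292 in those labelled WT (log2 change 2.90, adjusted p = 2.0e-07 by edgeR).

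Further genes of the list are named after their values were seen. Serpina3k, a serine protease inhibitor of liver, had 88, 47 and 95 counts in the libraries labelled KO against 651, 711 and 676 in those labelled WT, a log2 change of -3.34. Apob, the scaffold of very-low-density lipoprotein, had 3, 17 and 12 counts in the libraries labelled KO against 129, 136 and 161 in those labelled WT. The alpha-1-antitrypsin genes Serpina1a to Serpina1e all fell, by 2.63 to 3.84 on the log2 scale, but they are near-identical copies, so the split of reads among them is uncertain. The third gene that rose besides Apoc1 and Itih4 was Fetub, a relative of Ahsg that encodes fetuin-B, a protease inhibitor, with 129, 156 and 124 counts in the libraries labelled KO against 20, 44 and 28 in those labelled WT (log2 change 1.94).

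Genes whose products stay inside the hepatocyte were mostly near the detection limit in both groups. Of 38 enzymes and transporters, 5 reached 12 counts in every library labelled KO and 10 did so in every library labelled WT, 16 were at 0 in every library labelled KO and 5 in every library labelled WT. Among those at 0 in all 6 libraries were Cyp7a1, the rate-limiting enzyme of bile acid synthesis, and Hsd3b5. Only 13 were tested, of which 2 fell, 2 rose and 9 did not pass (median log2 change -0.87). Among all genes tested 10.5% fell and 11.5% rose, so these shares are near those of all genes. The genes left untested for low counts do not enter these shares, which therefore give no direction for the whole list. Cyp2e1, a cytochrome P450 that fat also expresses, had 89.3 ± 3.02 CPM in the libraries labelled KO and 116.5 ± 1.79 CPM in those labelled WT (log2 change -0.38), and the other that fell was Cyp3a11, with 8, 8 and 5 counts in the libraries labelled KO against 23, 100 and 73 in those labelled WT. The 2 that rose were Gnmt, a glycine methyltransferase (log2 change 2.05), and Fah, an enzyme of tyrosine breakdown (1.09). Adh1, an alcohol dehydrogenase, had 49.8 ± 5.23 CPM in the libraries labelled KO and 56.4 ± 2.86 CPM in those labelled WT (adjusted p = 0.15 by edgeR). How these low values relate to the levels of the secreted transcripts was not tested.

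Of 15 liver transcription factors, 14 were in the table and 8 were tested, of which 2 fell, 0 rose and 6 did not pass, beside 10.5% and 11.5% of all genes tested that fell and rose. Cebpa, which fat cells also need, had 22.5 ± 1.87 CPM in the libraries labelled KO and 36.5 ± 1.58 CPM in those labelled WT (log2 change -0.70, adjusted p = 0.00018 by edgeR). The others named by the fixed rule did not pass. These were Cebpb (log2 change -0.57, adjusted p = 0.40 by edgeR), Foxa3 (-2.15, adjusted p = 0.11 by edgeR) and Nr1i3 (0.44, adjusted p = 0.78 by edgeR). Hnf4a, a nuclear receptor of liver, gut and kidney, had 8, 0 and 4 counts in the libraries labelled KO against 59, 32 and 65 in those labelled WT, and is named after its values were seen.

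The partners of these proteins in blood and vessel wall were mostly well expressed. Of 26 receptors, lipases and clotting partners, 23 were tested, of which 0 fell, 3 rose and 20 did not pass, with a median log2 change of -0.03. Among all genes tested 10.5% fell and 11.5% rose, so the share that rose is near that of all genes. Lpl, the lipoprotein lipase that Apoc3 inhibits, rose to 1017 ± 43.0 CPM in the libraries labelled KO, against 752.9 ± 39.0 CPM in those labelled WT (log2 change 0.43, adjusted p = 4.3e-05 by edgeR). Gpihbp1, which anchors that lipase on capillaries, had 137.4 ± 8.08 CPM in the libraries labelled KO and 137.2 ± 3.07 CPM in those labelled WT. Apoe had 267.4 ± 7.69 CPM in the libraries labelled KO and 289.1 ± 5.04 CPM in those labelled WT (adjusted p = 0.062 by edgeR), and Fcgrt, the receptor that recycles albumin, had 51.8 ± 2.98 CPM in the libraries labelled KO and 50.6 ± 2.83 CPM in those labelled WT (adjusted p = 0.79 by edgeR). The other genes that rose, named after their values were seen, were Abca1, the cholesterol exporter that loads Apoa1 (log2 change 0.41), and Angptl4, an inhibitor of lipoprotein lipase (0.74).

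**Figure D4:**
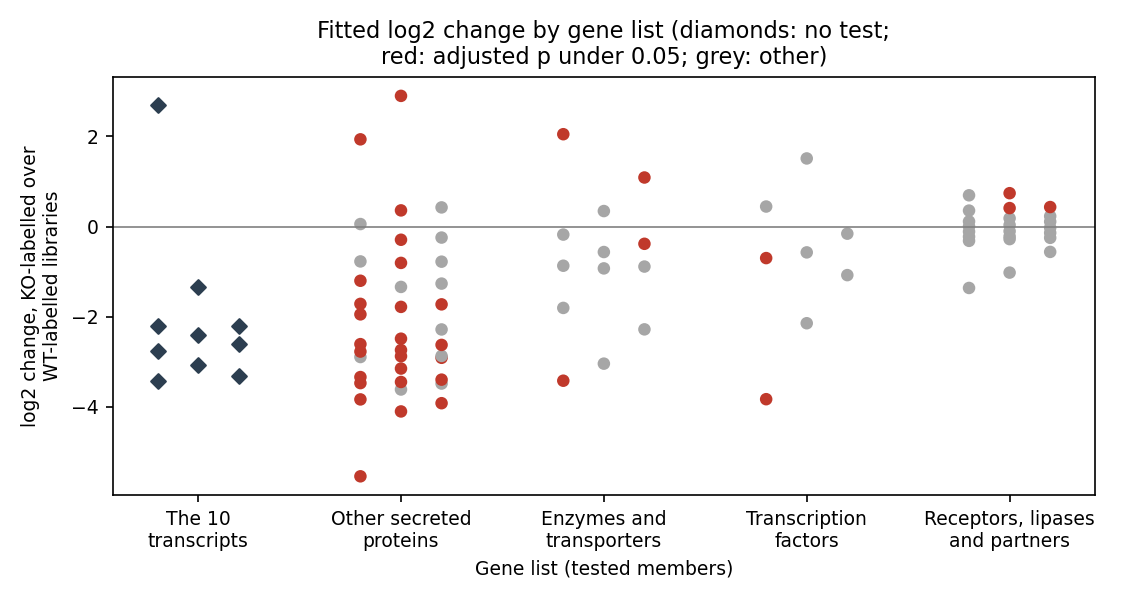
Fitted log2 change, libraries labelled KO over WT (vertical axis), for the 10 transcripts (diamonds, no test) and the tested members of 4 further lists, red where the adjusted p was under 0.05 and grey elsewhere. The other secreted proteins spread from -5.54 to 2.90 around a median of -2.55, while the median of the receptors and partners is -0.03.

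Some markers of other tissues also differed between the groups, and their part in the values above was not tested. The counts of each list below stand beside 10.5% lower and 11.5% higher among all genes tested, and several lists had few tested genes. A gene near 0 in 1 group could pass the low-count filter through the other group alone. Krt20, Cdx1 and Epcam, named below, passed it only through the libraries labelled WT. The counts therefore describe the tested genes and not the lists as wholes. The lung epithelium list summed to 1.74 to 2.30 CPM in the libraries labelled KO and 4.71 to 5.91 CPM in those labelled WT, with 2 of 5 tested genes lower and 0 higher. Scgb1a1, a secretory protein of airway club cells, had 3, 0 and 11 counts in the libraries labelled KO against 83, 132 and 57 in those labelled WT, and Sftpc, a surfactant protein, was the other that passed. Ager, a receptor of alveolar cells, had 52, 60 and 81 counts in the libraries labelled KO against 39, 20 and 37 in those labelled WT (adjusted p = 0.30 by edgeR), and Napsa did not pass either. Of the intestine list, 3 of 6 tested genes (Krt20, Vil1 and Cdx1) were lower and 0 higher, and Krt20, a keratin of gut epithelium, had 9, 0 and 0 counts in the libraries labelled KO against 102, 89 and 143 in those labelled WT. The intestine sum, at 39.5 to 41.4 CPM in the libraries labelled KO and 41.1 to 49.7 CPM in those labelled WT, was mostly Lgals4, which did not pass the test, and Sis, the sucrase of the gut brush border, was at 0 in all 6 libraries.

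Markers of liver cells other than hepatocytes, bile duct included, summed to 10.6 to 13.9 CPM in the libraries labelled KO and 19.9 to 24 CPM in those labelled WT, with 3 of 10 tested genes lower and 0 higher. Krt19, a keratin of bile duct and other simple epithelia, had 28, 33 and 24 counts in the libraries labelled KO against 250, 319 and 275 in those labelled WT. Epcam, an adhesion molecule of epithelia named after its values were seen, had 0 counts in every library labelled KO against 104, 88 and 99 in those labelled WT. The other that passed was Spp1, a secreted phosphoprotein. The other 7 did not pass. Among them Fcna had 298, 262 and 344 counts in the libraries labelled KO against 327, 251 and 218 in those labelled WT, and Timd4 had 56, 75 and 70 counts in the libraries labelled KO against 63, 94 and 83 in those labelled WT. Vsig4, a gene of Kupffer cells, had 49, 51 and 52 counts in the libraries labelled KO against 26, 13 and 29 in those labelled WT, and Lrat, a gene of stellate cells, had 27, 60 and 36 counts in the libraries labelled KO against 0, 5 and 8 in those labelled WT. Both were higher without overlap and are named after their values were seen. The acinar pancreas list (0.848 to 1.24 CPM in the libraries labelled KO, 0.879 to 1.23 CPM in those labelled WT) and the kidney tubule list (0.178 to 0.828 CPM in the libraries labelled KO, 0.320 to 0.983 CPM in those labelled WT) had 1 tested gene each, Cela1 and Aqp2, and neither passed.

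Markers of muscle, fibroblasts, red cells and fat moved as well. In every library the skeletal muscle sum was far above the smooth muscle sum, although aorta is the labelled tissue. The source of the skeletal muscle RNA was not tested. Smooth muscle markers summed to 247.7 to 253.7 CPM in the libraries labelled KO and 738.0 to 753.3 CPM in those labelled WT, with 11 of 12 lower and 0 higher. The fibroblast list gave 560.6 to 569.1 CPM in the libraries labelled KO and 1218 to 1246 CPM in those labelled WT, with 11 of 12 lower and 0 higher. Erythroid transcripts summed to 173.9 to 185.1 CPM in the libraries labelled KO and 491.6 to 502.6 CPM in those labelled WT, with 5 of 6 tested lower and 0 higher. By contrast, adipocyte markers (3277 to 3416 CPM in the libraries labelled KO, 3229 to 3294 CPM in those labelled WT) had 6 of 12 higher and 4 lower, and skeletal muscle markers (33610 to 34740 CPM in the libraries labelled KO, 26570 to 27110 CPM in those labelled WT) had 9 of 16 higher and 4 lower. The summed 10 transcripts stood at 16.9% of the level of the libraries labelled WT, the smooth muscle list at 33.8%, the erythroid list at 35.9%, the lung list at 39.0% and the fibroblast list at 45.9%.

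**Figure D5:**
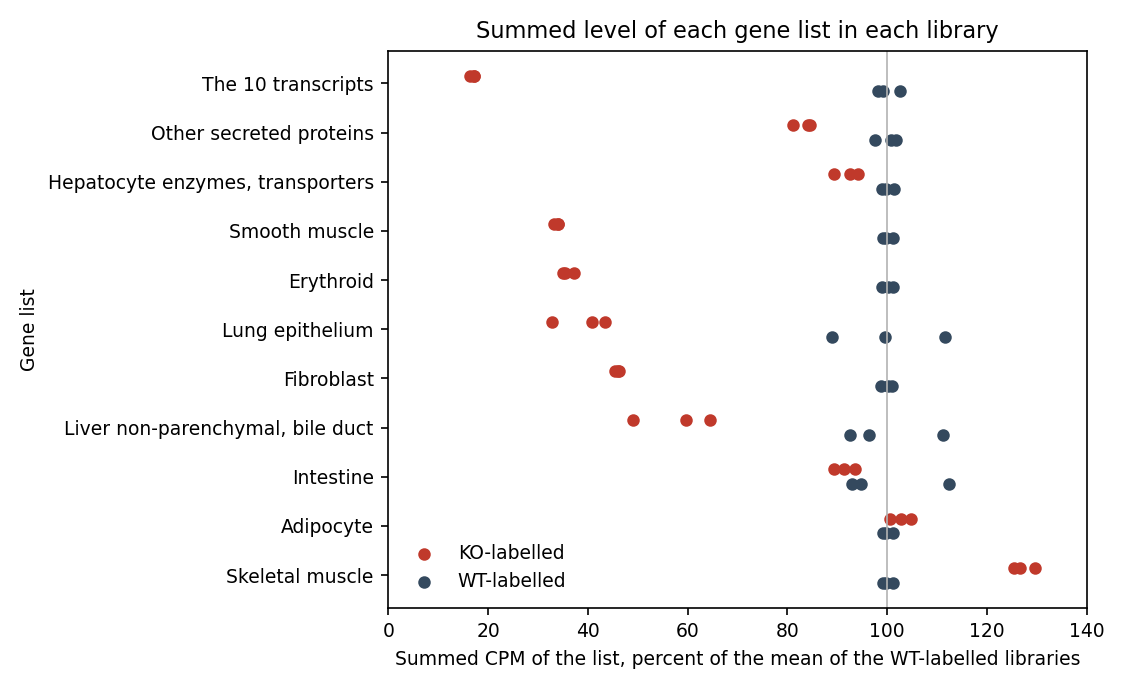
Summed CPM of each gene list in each library, as a percent of the mean of the libraries labelled WT (horizontal axis), with libraries labelled KO in red above those labelled WT in blue-grey. The 10 transcripts stand at about 16.9% in the libraries labelled KO, to the left of the smooth muscle (33.8%) and erythroid (35.9%) lists, while the adipocyte and skeletal muscle lists lie at or above 100%.

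Across the 6 libraries, the genes whose log2 CPM was most like the mean of the standardized values of the 10 transcripts were Pea15a, Tnnt1, Eva1b, Bcl6b, Myl3 and Mxra8, with Pearson's r between 0.998 and 0.999. Both groups lie in these 6 points, and 1293 of 12520 candidate genes (10.3%), those with a mean of at least 1 CPM in the libraries labelled WT, had an r over 0.9, so the group difference itself enters these values. Within the list, r with that mean, of which each member is a part, was 0.995 for Alb and 0.983 for Ahsg, 0.791 for Apoa1 and 0.746 for Apoa2, and -0.912 for Apoc3.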

How the data were processed

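The authors' table holds a whole-number count per gene, deposited unnormalized. It also holds FPKM per the file headers, and the sources used here do not say how these were computed. Per the submitters' processing notes, Bowtie 0.12.2, HISAT2 2.0 and mm8 were named without a role. The coordinates of the 10 genes equal those of GENCODE release M21 on GRCm38, so that build is given. Every row has a gene name, and every value column belongs to the series.

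For the counts, edgeR 4.0.16 under R 4.3.3 was run with filterByExpr, TMM scaling (trimmed mean of M values), and the two-sided quasi-likelihood F-test of genotype over 16620 genes, with Benjamini-Hochberg adjustment and a threshold of 0.05. The SE of a log2 change was taken from the F statistic. Alternatives were DESeq2 1.42.0, its size factors, no filter, counts divided by 4, removal of mitochondrial genes, a replicate block, leaving out each library, and limma 3.58.1 on log2(FPKM + 1), with pseudocounts of 0.1 and 0.5 and a minimum FPKM of 0.1 in 3 libraries. Scripts were tested on simulated counts. The members, lists and tests were chosen with earlier results of these data known. Named were all members, Otud1 and the 6 genes most like the members. From each list up to 4 tested genes of highest mean FPKM were named, except the lists of muscle, fibroblasts, red cells and fat. Further genes were named outside this rule. Upstream sequences are from RefSeq (GRCm38.p6). Some genes of these lists are not reported here. Figures were drawn with matplotlib 3.10.9.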

Additional observations from a re-analysis of the deposited data

How the results depend on the processing

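Each of the 10 transcripts kept its sign under all 16 alternatives run, and so did their median. That median moved to -0.801 with limma on log2(FPKM + 1), with or without the filter, to -1.18 at a pseudocount of 0.5 and to -1.98 at 0.1, as a pseudocount shrinks low values by construction. With a replicate block it was -2.59, and leaving out each library in turn gave -2.79 to -2.28. The ratio of the summed share was 0.153 without mitochondrial genes and their nuclear copies, 0.389 without Alb but with Apoc3, and 0.179 to 0.193 with a library left out. The count of enzymes and transporters called lower, 2, was 6 with DESeq2, which tested 34 of them, and 1 with limma on FPKM, which tested 7 of them, or 34 without a filter, and with counts divided by 4, which left 5; leaving out a library gave 2 to 3. The count of other secreted proteins called lower, 23, ranged from 17 to 25 over all alternatives and from 19 to 22 with a library left out. The number of genes called stayed within 1.5 times 3658 throughout.

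Libraries with the same number in the labels did not deviate together: their correlations were 0.0243, -0.00861 and 0.0178, and the second library labelled KO was most like the first labelled WT. The replicate block gave 3255 calls among all genes and 21 among the other secreted proteins. Depth limits Apoa2, Apoh and Ttr, with at most 43, 34 and 23 counts in any library labelled KO.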
